A study of Mus musculus with 4 samples.

Results

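The 8 genes described here are those of the hormone-sensing luminal cell of the mammary gland and of the RANKL axis: Esr1, Pgr, Foxa1, Gata3, Cited1, Tnfsf11, Tnfrsf11a and Tnfrsf11b. They were taken by name, with every probe set that carries exactly 1 of these symbols, which gave 11 of 20380 such probe sets and 8 of 12393 genes. RNA came from mammary tumours of nulliparous female FVB mice, induced in all groups by the progestin MP (Depo-Provera, 15 mg) and then 4 weekly oral doses of 1 mg of the carcinogen DMBA. The mice were wild type (WT) or their age-matched littermates with MMTV-PAX8PPARg, a fusion of PAX8 and PPARg driven by the promoter of the mouse mammary tumour virus, chiefly in mammary epithelium. They then received 60-day release pellets of placebo or of 2.5 mg RU486 (mifepristone), which blocks the progesterone receptor and also that for glucocorticoids, starting 1 day after the last DMBA dose and again after 60 days. The 4 groups were therefore WT with placebo, WT with RU486, PAX8PPARg with placebo and PAX8PPARg with RU486. Each had 1 Affymetrix array of RNA pooled from 5 mice, so no group has a replicate, the spread between mice is unknown, and comparisons of 2 arrays carry no test.

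In the mammary gland a minority of luminal cells carries the estrogen receptor and the progesterone receptor. These hormone-sensing cells depend on the transcription factors FOXA1 and GATA3, and progesterone makes them release RANKL, a cytokine that acts on RANK of neighbouring cells and drives their growth. Osteoprotegerin, a secreted decoy receptor, binds RANKL and keeps it from RANK.

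Signals were low as a rule for these genes, and a measure of background is needed to read them. Probe sets for bacterial transcripts reached at most 9.6 for WT placebo, 18.5 for WT RU486, 8.3 for PAX8PPARg placebo and 35.3 for PAX8PPARg RU486. A signal at or below that level is called within the background range, which held for 14% to 24.9% of the non-control probe sets of an array. Relative to WT placebo, the spike-in controls were brighter by a ratio of 1.59 for WT RU486 and of 2.43 for PAX8PPARg RU486. Of the 8 genes, 3 (Gata3, Cited1 and Tnfsf11) had a mean level no lower than the median gene. The luminal keratin genes Krt8 and Krt18 read at least 2201 on every array, so transcripts of luminal epithelium were present in each pool.

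Coordinates of the genes are those of RefSeq on GRCm38.p6. Tnfsf11 lies on chromosome 14 (78277446 to 78308043), Tnfrsf11a on chromosome 1 (105780673 to 105849444) and Tnfrsf11b on chromosome 15 (54250619 to 54278484). Esr1 lies on chromosome 10 (4611989 to 5005633), Pgr on chromosome 9 (8898900 to 8968611), Foxa1 on chromosome 12 (57540628 to 57548029), Gata3 on chromosome 2 (9857078 to 9887953) and Cited1 on chromosome X (102247378 to 102252181). RefSeq promoter windows were matched for 7 of the 8 genes. The 250 bases before the outermost start of the gene are printed for Esr1, Cited1 and Tnfsf11, a receptor, a coactivator and a ligand gene that were each highest on the PAX8PPARg placebo array, 5′ to 3′ on the gene's strand. They are chr10:4611739-4611988 (plus strand) for Esr1, chrX:102252182-102252431 (minus strand) for Cited1 and chr14:78308044-78308293 (minus strand) for Tnfsf11. Capitals mark matches, on either strand, to TATAAA (the TATA box) and GGTCA (the core letters of an estrogen receptor site).
Esr1: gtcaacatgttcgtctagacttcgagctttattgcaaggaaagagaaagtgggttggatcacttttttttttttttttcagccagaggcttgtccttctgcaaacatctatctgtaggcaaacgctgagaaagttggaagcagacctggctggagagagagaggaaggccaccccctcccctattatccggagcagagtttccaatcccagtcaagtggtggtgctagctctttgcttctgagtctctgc
Cited1: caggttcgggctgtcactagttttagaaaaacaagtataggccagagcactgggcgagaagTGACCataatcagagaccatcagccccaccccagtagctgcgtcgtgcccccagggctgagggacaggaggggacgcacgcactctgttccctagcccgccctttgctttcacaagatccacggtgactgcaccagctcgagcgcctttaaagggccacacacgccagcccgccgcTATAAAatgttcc
Tnfsf11: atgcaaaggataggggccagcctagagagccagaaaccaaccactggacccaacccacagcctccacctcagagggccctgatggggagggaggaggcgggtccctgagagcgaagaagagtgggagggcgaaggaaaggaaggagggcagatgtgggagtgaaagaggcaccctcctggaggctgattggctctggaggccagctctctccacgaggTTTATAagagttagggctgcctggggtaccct

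The windows were also searched for GTAAACA (the forkhead motif), AGATAA (the motif of GATA factors) and AGAACA (core letters of a progesterone or glucocorticoid receptor site), on both strands, and matches of different motifs did not overlap. The Esr1 window held none of the 5 letter strings. Positions are those of the first base of a match as printed, with -1 as the last base before the start. TATAAA began at -32 of Tnfsf11 on the reverse strand and at -13 of Cited1. GGTCA began at -189 of Cited1 on the reverse strand. Among windows not printed, that of Foxa1 at 57546111 held GTAAACA at -141 and GGTCA at -210, that of Gata3 at 9878600 held GGTCA at -199, and that of Pgr at 8899833 held TATAAA at -212 on the reverse strand. Of the other windows of Cited1, that at 102251843 held TATAAA at -115 and that at 102250776 held GGTCA at -217 on the reverse strand. In 32851 RefSeq windows of the same length, TATAAA was present in 12.4%, GGTCA in 35.2%, AGAACA in 16.1%, AGATAA in 9.99% and GTAAACA in 3.17%. A match to letters is a description of the window, not a binding site.

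Both steroid receptor genes of the 8, Esr1 and Pgr, were brightest on the PAX8PPARg placebo array. Esr1, the gene of estrogen receptor alpha, had signals of 105.6 for WT placebo, 78.3 for WT RU486, 363.0 for PAX8PPARg placebo and 2.3 for PAX8PPARg RU486. Only the last lay within the background range. Pgr, the gene of the progesterone receptor and thus of the target of RU486, read 37.3, 37.9, 235.8 and 78.0 in the same order. The WT arrays were alike for Pgr, and both PAX8PPARg arrays lay above them.

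The transcription factor genes showed the same high PAX8PPARg placebo array. Foxa1, the gene of a forkhead factor that opens chromatin for the estrogen receptor, read 247.0, 41.5, 1146.3 and 33.6 in the same order of arrays, the last within the background range. Gata3, the gene of a zinc finger factor needed to keep luminal cells luminal, read 927.0, 352.2, 1287.7 and 324.9. For both genes the RU486 arrays lay below both placebo arrays. Cited1, the gene of a transcriptional coactivator of the estrogen receptor, read 239.3, 100.2, 1901.1 and 105.0, again with both RU486 arrays at the bottom.

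Tnfsf11, the gene of RANKL, had the highest single signal of the 8 genes. Its brighter probe set read 668.5, 105.5, 3138.7 and 101.8 in that order, and its dimmer one 44.3, 22.3, 234.0 and 28.0, the last within the background range. Both probe sets put PAX8PPARg placebo first and WT placebo second, and they differed in the order of the RU486 arrays. From highest to lowest the brighter set spanned 4.61 log2 and the dimmer 2.51 log2.

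The receptors of RANKL followed other patterns. Tnfrsf11a, the gene of RANK, read 69.3, 80.0, 28.4 and 35.5 on its brighter probe set and 38.7, 41.8, 29.9 and 52.9 on the other. The former was higher on the WT arrays, while the latter was highest on the PAX8PPARg RU486 array, so its probe sets disagree on the order of the arrays. Tnfrsf11b, the gene of osteoprotegerin, read 87.1, 47.7, 52.5 and 209.8, and its second probe set 17.0, 10 (within the background range), 11.8 and 41.9. Both Tnfrsf11b probe sets were highest on the PAX8PPARg RU486 array and lowest on the WT RU486 array. Over all 12393 genes, 16% were highest on the PAX8PPARg placebo array, as were 6 of the 8 genes here.

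**Figure D1:**
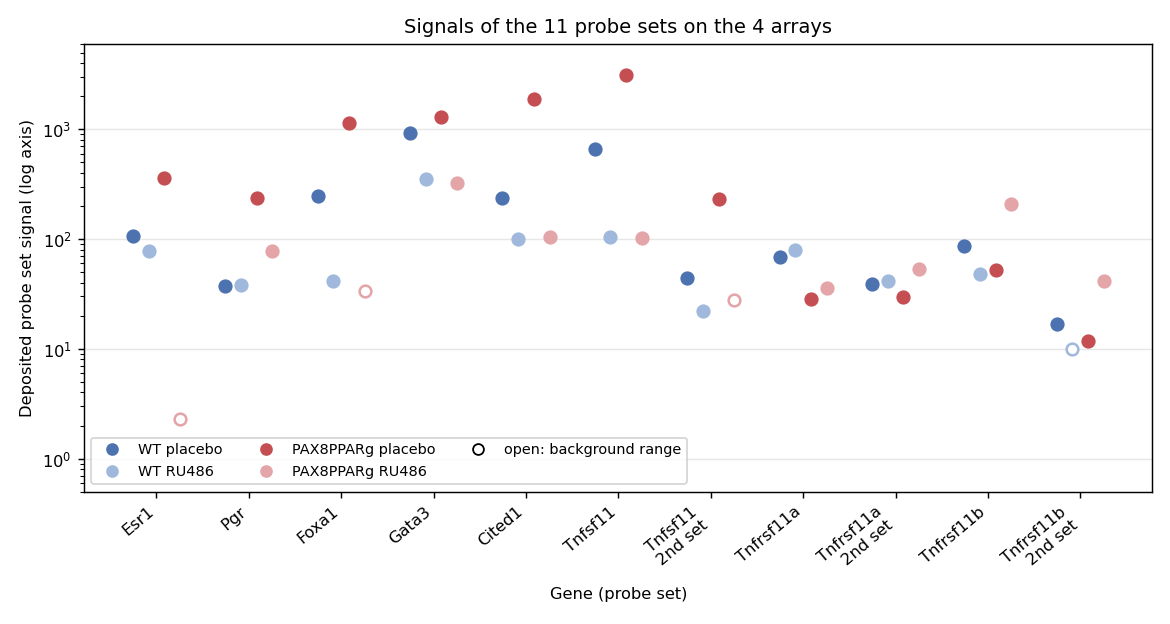
Deposited signals of the 11 probe sets on a log axis, with 1 point for each of the 4 arrays and open points for signals within the background range of their array. PAX8PPARg placebo is the top point for Esr1, Pgr, Foxa1, Gata3, Cited1 and both Tnfsf11 probe sets, while Tnfrsf11b is highest under RU486 in PAX8PPARg at 209.8.

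The first comparison asked how RU486 and placebo tumours of WT mice differed. A difference is one of log2(signal + 16), with every array centred on its median signal, for the first-named group minus the second, and a gene is represented by its brightest probe set. Tnfsf11 was 5.63-fold lower under RU486 (-2.49 log2, and -0.65 on its second probe set), Foxa1 4.57-fold lower (-2.19), Gata3 2.56-fold lower (-1.36) and Cited1 2.20-fold lower (-1.13). With a pseudocount of 64, Cited1 was no longer past 2-fold (-0.89). The receptor genes differed less, with Esr1 at -0.37, Pgr at 0.02, Tnfrsf11a at 0.17 and Tnfrsf11b at -0.69. At least 2-fold lower were thus 4 of the 8 genes, against 8.85% of all genes, and 0 of 8 were at least 2-fold higher, against 7.45%. Their median was -0.91, against 0.01 over all genes.

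Epithelial genes as a whole were lower on the same WT array. Of 15 luminal epithelial markers, 14 were at least 2-fold lower. Their median was -3.02, with a range from -4.86 to -0.90, so each of the 8 genes lay above the luminal median. Tnfsf11 stood 0.52 log2 and Foxa1 0.82 log2 above it, and Esr1 and Pgr lay above all 15 markers. The WT placebo signals of Pgr (37.3), Tnfrsf11a (69.3), Tnfrsf11b (87.1) and Esr1 (105.6) were low. With the pseudocount, even a loss of all signal would have left them above the luminal median. At the background level of the RU486 array (18.5), Pgr would still have stood above all 15 markers. For these genes the comparison therefore cannot show whether they fell less than luminal transcripts. The summed signal of the luminal markers was 42246 under placebo and 6636 under RU486, and that of 11 macrophage markers 13192 and 50802. The part of these shifts in the values of the 8 genes was not tested. In tumour RNA, fewer cells of a type and less RNA per cell cannot be told apart.

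In PAX8PPARg mice the question was the same, and most of the 8 genes were lower under RU486. Tnfsf11 was 24.4-fold lower (-4.61, and -2.37 on its second probe set, whose RU486 signal was within the background range), and Cited1 was 14.4-fold lower (-3.85). Foxa1 was at least 20.7-fold lower and Esr1 at least 6.74-fold lower, both computed against the background level of the RU486 array because their signals there lay under it (measured differences of -4.42 and -4.24). Gata3 was 3.49-fold lower (-1.80) and Pgr 2.44-fold lower (-1.29), the latter 0.97 below placebo with a pseudocount of 64. Only 8 of 12393 genes had a more negative difference than Tnfsf11, 12 than Foxa1, 17 than Esr1 and 25 than Cited1, where the measured values of Foxa1 and Esr1 are not exact.

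In total, 6 of the 8 genes were at least 2-fold lower in PAX8PPARg under RU486, against 7.02% of all genes. The exceptions were the RANKL receptors. Tnfrsf11a differed by 0.35 and 0.72 on its probe sets, and Tnfrsf11b was 3.62-fold higher (1.85, and 1.19 on the second set). The signals of that second set, 11.8 and 41.9, lay just above the background levels of their arrays, 8.3 and 35.3. Those levels themselves differ by 1.21 on this scale, so 1.19 cannot be told apart from a difference in background. The same holds for the smaller differences of both Tnfrsf11a sets, of which the brighter read 35.5 under RU486, just above 35.3. At least 2-fold higher was thus 1 of 8, against 10.6% of all genes. By measured values, the median of the 8 genes was -2.83 and that of all genes 0.13. With the background level in place of the Esr1 signal, its difference was -2.75, which makes the median of the 8 genes less negative. In that pool the RANKL transcript was therefore lower while that of its decoy receptor was higher. Markers of squamous epidermis and hair follicle had the order of arrays of Tnfrsf11b, with summed signals of 7328, 358.1, 968.3 and 8797 in the order used for Esr1. Under RU486, 11 of 12 were past 2-fold in each genotype, downward in WT (median -3.50) and upward in PAX8PPARg (3.73). Of the 12, 7 had a signal within the background range on some array, and with background levels in place the medians were -3.32 and 3.73. The sums of luminal and of basal epithelial markers (19069, 3420, 16363 and 23860) had that order too, and the part of these cells in the Tnfrsf11b values was not tested.

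Unlike in WT, the luminal markers of PAX8PPARg tumours were no lower under RU486. Their median was 0.53, with 1 of 15 at least 2-fold lower (Krt19, -1.82) and 1 at least 2-fold higher, and their summed signal was 37812 under placebo and 42512 under RU486. Esr1, Foxa1, Cited1 and Tnfsf11 lay below all 15 markers, and Pgr and Gata3 below 14 of 15. Against the luminal median, Tnfsf11 stood 5.14 log2 lower (-5.14), Foxa1 -4.95, Esr1 -4.77, Cited1 -4.38, Gata3 -2.33 and Pgr -1.82. The values of Foxa1 and Esr1 are as measured, from RU486 signals within the background range. With that background level in place, their differences between RU486 and placebo were -4.37 and -2.75, still below all 15 markers.

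**Figure D2:**
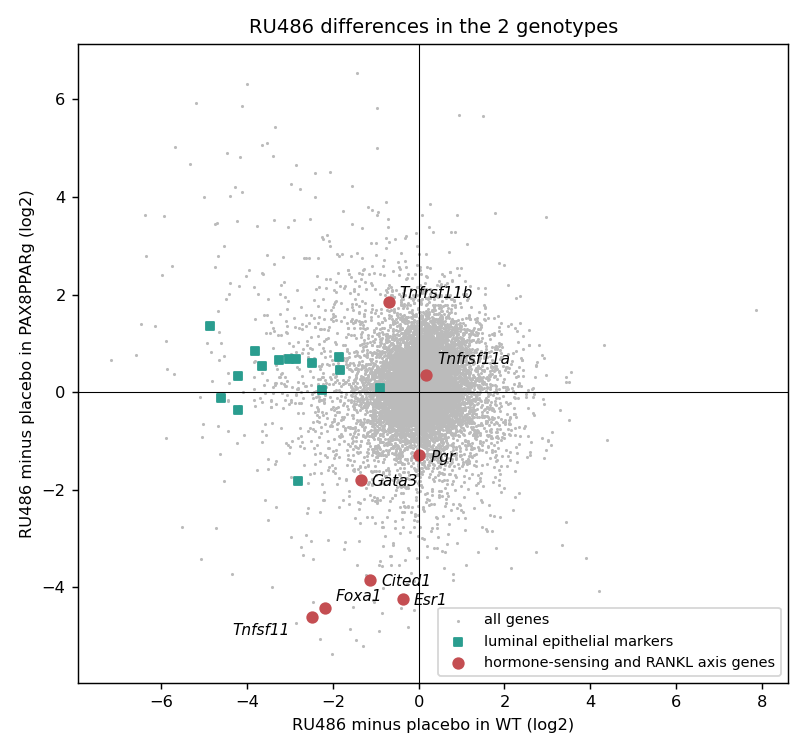
Difference between RU486 and placebo in log2 for every gene, WT on the horizontal and PAX8PPARg on the vertical axis, with the 15 luminal epithelial markers as squares and the 8 hormone-sensing and RANKL axis genes as labelled points. The luminal markers lie to the left near 0 on the vertical axis (medians -3.02 and 0.53), while Tnfsf11, Foxa1, Esr1 and Cited1 lie between -4.61 and -3.85 on it. Foxa1 and Esr1 are as measured, with PAX8PPARg RU486 signals within the background range.

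Markers of other tissue moved with the PAX8PPARg placebo array as well. The summed signals of the adipocyte markers were 6299, 3067, 16699 and 2940 in the order of arrays used for Esr1, and 6 of 6 measured markers were highest on the third. The T and NK cell markers summed to 1388, 979.7, 3874 and 891.3, with 8 of 10 highest there, and the B and plasma cell markers to 165.8, 398.7, 3695 and 225.5, with 7 of 7. The endothelial markers summed to 2373, 1581, 4413 and 1632, with 8 of 8. None of these markers was at 0, though Cd79a, Ms4a1, Blk and Cr2 were within the background range on 2 or 3 arrays. T cells also make RANKL and GATA3, and the part of these cells in the values was not tested.

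**Figure D3:**
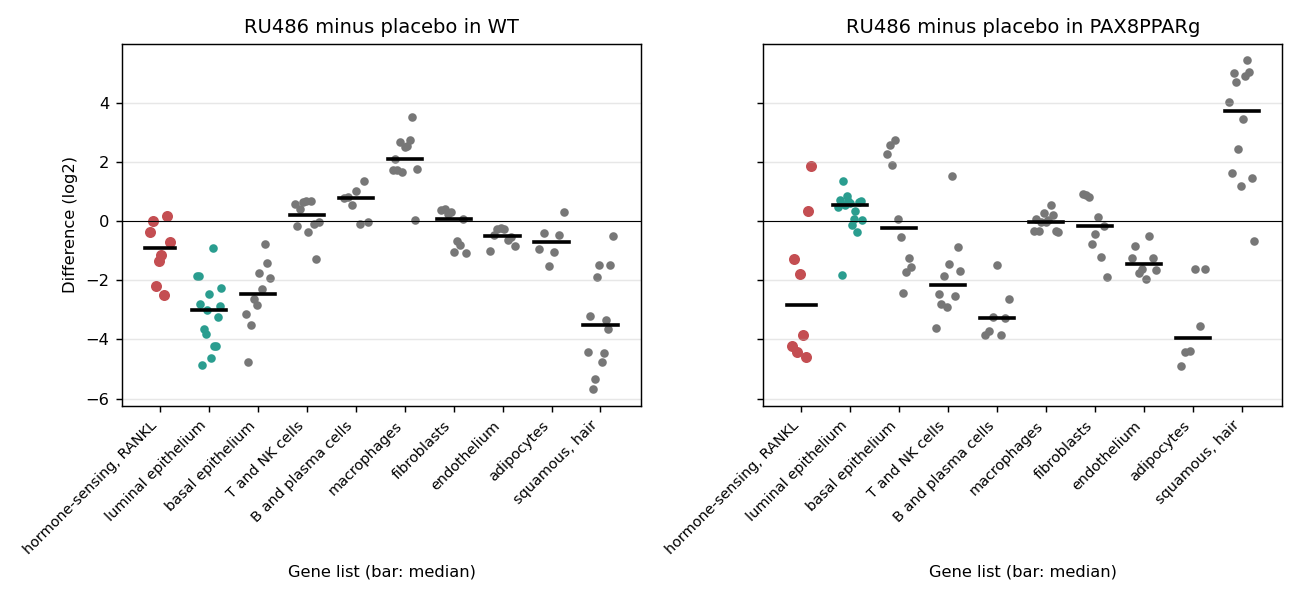
Difference between RU486 and placebo in log2 for the 8 genes and for each gene of 9 marker lists, WT in the left panel and PAX8PPARg in the right, with bars at the list medians. In WT the luminal median is -3.02 and that of the 8 genes -0.91, while in PAX8PPARg these are 0.53 and -2.83, beside -3.96 for adipocyte and -3.27 for B and plasma cell markers. All are by measured values. The PAX8PPARg RU486 signals of Esr1, Foxa1 and most B and plasma cell markers lay within the background range.

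The third comparison set PAX8PPARg against WT under placebo, and it shares its arrays with both comparisons above. Cited1 was 6.58-fold higher (2.72), Pgr 4.14-fold higher (2.05), Tnfsf11 4.04-fold higher (2.01, and 1.86 on its second set), Foxa1 3.87-fold higher (1.95) and Esr1 2.73-fold higher (1.45). Gata3 differed by 0.28. At least 2-fold higher were 5 of the 8 genes, against 4.28% of all genes. These 5 lay above all 15 luminal markers, whose median was -0.28 and whose highest value was 0.84. Tnfrsf11a was 2.19-fold lower on its brighter probe set (-1.13) and -0.44 on the other, and Tnfrsf11b differed by -0.78. At least 2-fold lower was 1 of 8, against 5.5%, and Tnfrsf11a was no longer past 2-fold without centring (-0.94), with probe sets averaged (-0.79) or with a pseudocount of 64 (-0.68). Markers of some other tissues were also higher in this comparison, with medians of 3.01 for adipocytes, 3.64 for B and plasma cells, 1.85 for T and NK cells and 0.67 for endothelium. Those of fibroblasts (-0.21) and macrophages (-0.09) differed little. The median of 12 squamous epidermis and hair follicle markers was -3.25, with 11 past 2-fold. It was -3.01 with background levels in place of signals within the background range. The part of these markers in the values of the 8 genes was not tested.

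The fourth comparison set PAX8PPARg against WT under RU486. Cited1, Tnfsf11 and Foxa1, which were at least 2-fold higher in PAX8PPARg under placebo, read alike here, as did Gata3. Cited1 differed by 0.00 (100.2 in WT and 105.0 in PAX8PPARg), Tnfsf11 by -0.10 (105.5 and 101.8), Gata3 by -0.17 (352.2 and 324.9) and Foxa1 by -0.27 (41.5 and 33.6). These are below 0.32 log2, the SD of this difference between probe sets of 1 gene. The SD is the scatter of probe sets of a gene on the same arrays. It holds no spread between mice and no error of an array or its labelling that those probe sets share. It came from 2267 genes with probe sets at or above the median gene level. Foxa1 lay below that level and its PAX8PPARg signal was within the background range, so the SD may not hold for it. The luminal markers were at least 2-fold higher in PAX8PPARg for 15 of 15, with a median of 3.49 and a lowest value of 1.39, so each of the 8 genes but Tnfrsf11b lay below all 15.

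Pgr was 0.74 log2 higher in PAX8PPARg under RU486, and Tnfrsf11b was 3.41-fold higher (1.77, and 1.10 on its second set). The second set gave 0.69 with the background level in place of its WT RU486 signal. Esr1 was lower by 2.42 as measured (-2.42), but against the background level of its array the difference was at least 1.91-fold. By measured values 1 of 8 (Esr1) was at least 2-fold lower, against 10.1% of all genes, and by that bound 0 of 8. At least 2-fold higher was 1 of 8, against 10.8%. Both shares were near the background.

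How far RU486 differences departed between genotypes, PAX8PPARg minus WT, was taken from all 4 arrays. It was -3.87 for Esr1 (-2.39 with the background level in place of its PAX8PPARg RU486 signal), -2.72 for Cited1, -2.22 for Foxa1, -2.12 for Tnfsf11 and -1.31 for Pgr (-0.98 with a pseudocount of 64). Gata3 (-0.45) and Tnfrsf11a (0.18) differed least, and Tnfrsf11b stood at 2.55. At least 2-fold lower were 5 of 8, against 12.1% of all genes, and at least 2-fold higher 1 of 8, against 15.6%. The luminal median was 3.69, of the opposite sign to that of the 8 genes (-1.71).

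The test over samples that the arrays allow is an additive fit of treatment and genotype over the 4 arrays with limma, which leaves 1 residual degree of freedom. That residual comes from the departure of the RU486 difference between genotypes given above. The SE and p of limma rest on it, and on its size over the genes tested, and hold no spread between mice. Of 6197 genes at or above the median level, 0 passed an adjusted p of 0.05 for RU486 (0.0%, with 278 at an unadjusted p under 0.05) and 0 for genotype (with 273). For RU486 the limma estimates were -3.55 ± 0.60 (SE) for Tnfsf11, -2.49 ± 0.74 for Cited1 and -1.58 ± 0.30 for Gata3, each with an adjusted p of 0.97 (0.886 to 0.977 over the alternatives). Their unadjusted p were 0.0043, 0.028 and 0.0066 by limma, and each was lower under RU486 in 2 of 2 genotypes. For genotype the adjusted p of Tnfsf11 and Cited1 was 0.938 and that of Gata3 0.992.

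Other genes of these pathways were read from lists chosen by function. The counts below stand against these shares. In WT, 8.85% of all genes were at least 2-fold lower under RU486 and 7.45% higher. In PAX8PPARg these shares were 7.02% and 10.6%, and for PAX8PPARg against WT under placebo 5.5% and 4.28%. Of 18 genes of hormone-sensing cells and estrogen receptor targets, 16 were measured. In PAX8PPARg 2 of 16 were at least 2-fold lower under RU486, Stc2, the gene of the secreted glycoprotein stanniocalcin 2 (-3.20), and Cxcl12, the gene of a chemokine induced by estrogen (-2.78), and 2 were higher, Agr2 (1.21) and Myb (1.19). Both PAX8PPARg signals of Agr2 (4.5 and 27.1) were within the background range. Greb1, an estrogen receptor target, read 3.4, 51.1, 12.0 and 32.9 in the order used above, the first and last within the background range. Tff1 read between 22.6 and 42.8, and its PAX8PPARg RU486 signal (34.6) was within that range too. The list median in PAX8PPARg was 0.40, against -4.24 for Esr1 as measured. With background levels in place of such signals these were 0.50 and -2.75.

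In WT, 5 of the 16 were at least 2-fold lower, among them Prom1 (-2.87), Xbp1, a factor of secretory cells (-2.27), and Stc2 (-1.75). In PAX8PPARg, Prom1, Xbp1 and Stc2 differed by 0.68, 0.81 and -3.20, and Prom1 is also among the 15 luminal markers. At least 2-fold higher in WT were 2, Igfbp4 (1.15) and Greb1. The WT placebo signal of Greb1 was within the background range, and its difference was 1.79 as measured and 1.39 with that background level in its place. Under placebo 5 of 16 were at least 2-fold higher in PAX8PPARg, led by Cxcl12 (1.83) and Stc2 (1.72), and Xbp1 was lower (-2.19). Stc2 read 944.8, 269.5, 3602.9 and 342.4, the same order of arrays as Cited1.

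Of 13 progesterone paracrine and target genes, 10 were measured. Under RU486, 4 were at least 2-fold lower in WT and 5 in PAX8PPARg. Wnt4, which encodes a Wnt ligand released downstream of the progesterone receptor, read 123.6, 80.5, 403.7 and 141.4, a difference of -0.53 in WT and -1.28 in PAX8PPARg. Stat5a, which relays prolactin signals, was lower in both (-2.59 and -1.86), while Id4 was lower in WT (-2.12) and higher in PAX8PPARg (1.27). Elf5, the alveolar factor through which RANKL and prolactin act, differed by -5.89 and -0.93. Ccnd1, the gene of cyclin D1, was 0.93 and 1.03 higher. Klf9 and Sgk1, which respond to progesterone and to glucocorticoids, were lower in PAX8PPARg (-1.11 and -1.02) and differed by -0.22 and -0.12 in WT.

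Of 11 other hormone and growth factor receptor genes, 8 were measured, and 2 of the 8 were highest on the PAX8PPARg placebo array. They had medians of -0.33 in WT and 0.22 in PAX8PPARg under RU486. Erbb3, a partner of the EGF receptor family in luminal cells, differed by -3.58 in WT and -0.66 in PAX8PPARg. Ghr, the growth hormone receptor gene, read 788.7, 616.1, 1712.1 and 523.0, the same order of arrays as Esr1, and differed by -0.35 and -1.55. Esrra, an orphan receptor gene, differed by -0.31 and 1.18. Esr2, the gene of the other estrogen receptor, read 2.4, 2.7, 1.6 and 13.2 and stayed under the bacterial control level of all 4 arrays. Of 11 measured receptor coregulators and chaperones of 16, 0 differed at least 2-fold between RU486 and placebo in either genotype, with medians of -0.10 and -0.04. The widest differences among them were those of Fkbp4 (-0.79 in WT), a chaperone of the progesterone receptor, and Fkbp5 (-0.95 in PAX8PPARg).

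Downstream of RANK, 17 of 20 signalling genes were measured. In WT 4 were at least 2-fold higher under RU486, the adaptor genes Traf1 (2.21) and Traf5 (1.66), Nfatc1, a factor switched on by RANK in osteoclasts (1.29), and Map3k14, the kinase gene of the alternative NF-kB pathway (1.21), and 1 was lower, Id2 (-1.56). In PAX8PPARg 0 of 17 passed 2-fold in either direction, and the median was -0.45. Traf6, the adaptor that RANK needs for most of its signals, differed by -0.86 and -0.54. Of 8 measured osteoclast genes of 10, 2 were at least 2-fold higher in WT, Spi1 (1.68) and Mitf (1.37), which macrophages express too, and 1 in PAX8PPARg, Mmp9 (3.27). Macrophage markers had medians of 2.08 in WT and -0.04 in PAX8PPARg, and their part was not tested.

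**Figure D4:**
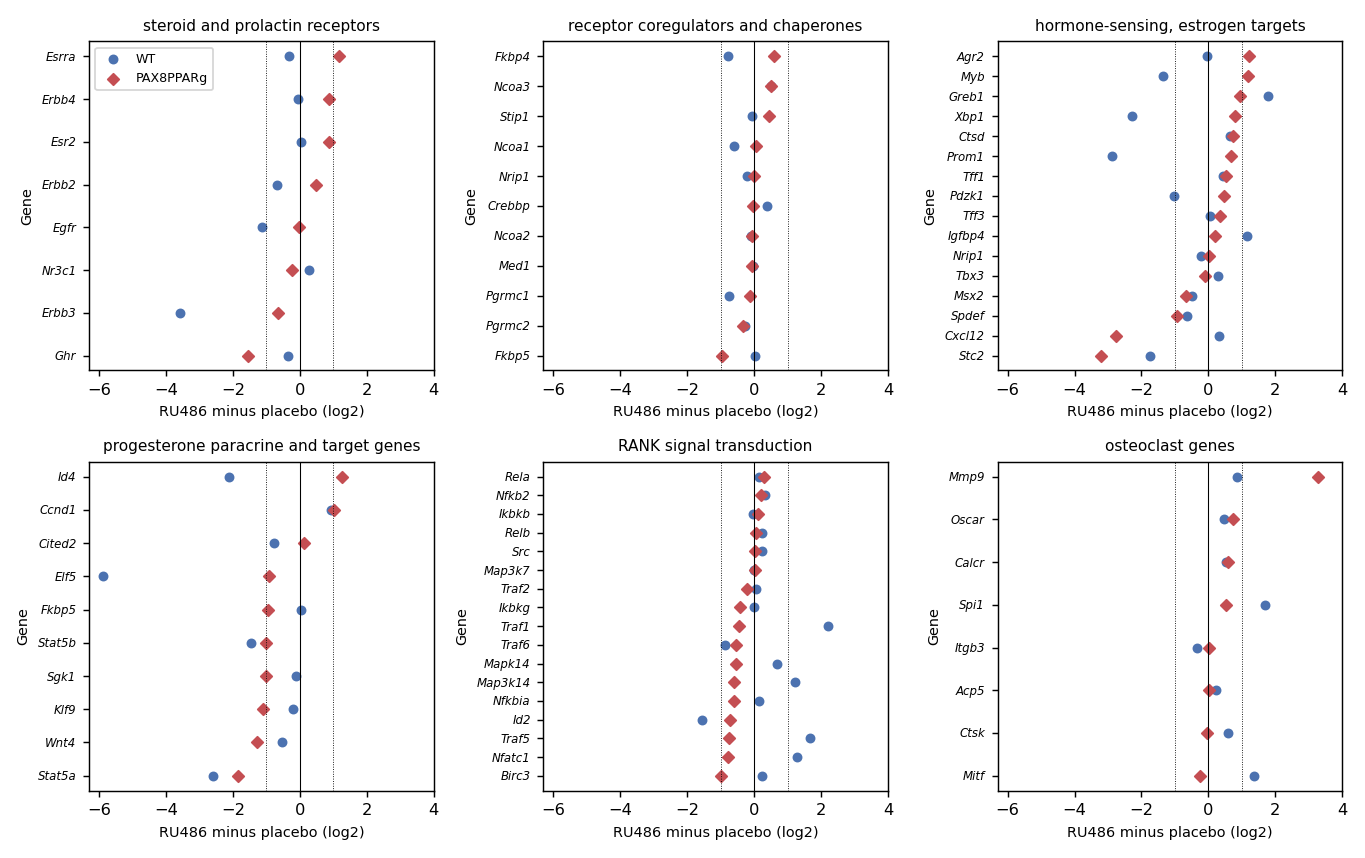
Difference between RU486 and placebo in log2 for the measured genes of 6 pathway lists, circles for WT and diamonds for PAX8PPARg, with dotted lines at 2-fold. Coregulators stay between the dotted lines in both genotypes, Stc2 and Cxcl12 lie at -3.20 and -2.78 in PAX8PPARg, and Traf1 and Traf5 lie at 2.21 and 1.66 in WT.

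Among themselves, Foxa1 and Tnfsf11 had the most alike profiles over the 4 arrays. After each profile was set to a mean of 0, their root mean square difference was 0.14 log2, against 0.50 for Foxa1 and Cited1, 0.59 for Cited1 and Tnfsf11, and 2.38 for Tnfsf11 and Tnfrsf11b, the least alike. Of all other named genes at or above the median level, Pcp4, the gene of a calmodulin regulator, was nearest to Tnfsf11 (0.11) and to Foxa1 (0.11), with signals of 489.6, 75.1, 2010.8 and 77.6.

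The next genes near Tnfsf11 were Cyp2e1 (0.38) and Acss2 (0.44), and those near Cited1 were Cd36 (0.23), Fgg (0.26) and Dgat2 (0.33). Cd36 and Dgat2 serve lipid uptake and storage and Acss2 makes acetyl-CoA. Nearest to Esr1 were Nnat (0.55), Iqgap2 (0.55) and Car3 (0.57), and nearest to Pgr were Chst1 (0.22), Gstz1 (0.25) and Meox1 (0.26). Gata3 was nearest to Cytip (0.07), a gene of lymphoid cells, and Slc39a8 (0.11). Tnfrsf11a was nearest to Cd82 (0.02) and Tnfrsf11b to Pdzrn3 (0.06) and Rdh10 (0.07). With 4 arrays, many genes share a profile, and these distances are descriptions.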

How the data were processed

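Probe set signals (linear intensity) were used as deposited by the authors. Arrays had been scaled before deposit, to a 2% trimmed mean between 500.15 and 500.20, by an algorithm not given in the sources used here. Of 22690 probe sets, 64 were controls, and of the others 20380 had 1 gene symbol, 691 several and 1555 none, by the platform table. Signals were transformed as log2(signal + 16), arrays were centred on the median of their non-control probe sets, and the probe set with the highest mean represented a gene. Of 176 listed genes, 22 had no probe set with 1 symbol. Genes were counted at 2-fold. The fits used limma 3.58.1 in R 4.3.3 (Benjamini-Hochberg adjustment), and Python 3.11.15 with pandas 2.3.3 served for the rest. limma was also run on simulated data in which RU486 had the same effect in both genotypes. Real differences departed between genotypes, so that run does not tell how well the fits here could call genes.

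The background range of an array ended at the brightest of its 27 bacterial controls. For such signals "at least" folds put that level in place of the signal.

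Members and lists were chosen with earlier results of these data known. Pathway genes were named from those with the largest differences past 2-fold in each list and direction, and by function beyond these, chosen after their values were seen. For each of the 8 genes, the 3 most alike of the genes at or above the median level were taken. Alternatives were pseudocounts of 1 and 64, no centring, quantile normalization, averaged probe sets and no filter on level.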

Additional observations from a re-analysis of the deposited data

Results flagged for a closer look

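With 1 array per group none of these differences was tested. Tnfrsf11b was picked out because the RU486 difference had opposite signs in the genotypes, at -0.69 in WT and 1.85 in PAX8PPARg, and because the genotype difference did too, at -0.78 under placebo and 1.77 under RU486. The medians of 12 squamous epidermis and hair follicle markers had the same signs, at -3.50, 3.73, -3.25 and 3.79. With background levels in place of signals within that range they were -3.32, 3.73, -3.01 and 3.45. The part of these markers in the Tnfrsf11b values was not tested. The second Tnfrsf11b probe set had the same 4 signs, but its WT RU486 signal was within the background range. With that background level in its place, its RU486 difference in WT was 0.065, against -0.34 as measured. Esr1 was picked out because the genotype difference was 1.45 under placebo and -2.42 under RU486, where its PAX8PPARg signal was within the background range.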

How the results depend on the processing

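Of 200 values of the 8 genes under 5 alternatives, 168 moved by less than the SD between probe sets of a gene, 32 by more, and 0 differences past 2-fold changed sign. The count of the 8 genes at least 2-fold lower in PAX8PPARg under placebo, 1 as reported, was 0 with a pseudocount of 64, without centring and with probe sets averaged. That count under RU486, 1 as reported, was 2 with a pseudocount of 1 and with quantile normalization, with Tnfrsf11a added to Esr1. The Esr1 difference between RU486 and placebo in PAX8PPARg ranged from -6.64 to -2.58, set by the pseudocount since its RU486 signal was 2.3. Tnfsf11 ranged from -4.89 to -3.49 there and Foxa1 from -4.91 to -3.52. No alternative of the limma fits called a gene (0 for both terms). Over all genes, the share of 2-fold calls that were higher in PAX8PPARg under RU486 was 60.1%, and 48.8% without centring and 46.0% with quantile normalization. For genotype under placebo it was 43.8%, and 60.5% without centring, where the median of all genes moved from -0.15 to 0.04. No paired analysis was possible because each group has 1 array.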
